A study of Mus musculus with 15 samples.

Results

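Mouse brain tumours labelled EPN Sox9-GOF were compared with tumours labelled EPN control, across all 24421 genes of the table deposited for this pair of groups. EPN is the usual abbreviation for ependymoma, a tumour related to the cells that line the ventricles of the brain, and GOF that for gain of function, here of Sox9. The comparison held 6 of the 15 libraries of the series, 3 per group, picked by their titles. Each library came from brain tumour tissue frozen in trizol, from which stranded poly(A) libraries were made. The labels used here give neither the oncogene that drives the tumours, nor the strain, age or sex of the mice, nor how Sox9 function was raised. They do not say whether replicates are separate animals, so every p-value measures the spread between these libraries, which may be technical in part. The tissue is bulk tumour, and fewer cells of a type and less RNA per cell cannot be told apart.

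SOX9 is a DNA-binding protein of the SOX family that recognises a short AT-rich core. In development it helps neural progenitors become glia, keeps stem cells of the brain in their state and directs cartilage formation. It commonly works with NFI proteins in astrocyte precursors, and its level is high in many glial tumours. Ependymomas of the forebrain resemble radial glia, the progenitors that span the embryonic cortex wall.

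The libraries held 14119140, 12067101 and 10957005 reads on genes in EPN Sox9-GOF tumours 1, 2 and 3, and 9443466, 9084782 and 6266613 reads in EPN control tumours 1, 2 and 3, so the Sox9-GOF libraries were the deeper ones. All values below are normalized counts, that is reads divided by a size factor per library. Pearson correlations across genes were 0.917 to 0.938 within the Sox9-GOF group, 0.928 to 0.96 within the controls and 0.889 to 0.947 between the groups, so these ranges overlapped. The median SD of a gene on the log2 scale was 0.343 among Sox9-GOF tumours and 0.251 among controls. Markers of ependymal cells and motile cilia were low in both groups: 11 of 24 reached a mean of 10. Foxj1, the master regulator of motile cilia, had 68.6, 106 and 12.3 in Sox9-GOF tumours, against 125, 89.2 and 60 in controls.

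Several libraries stood apart from their labels' grouping, and results below are given with that in view. The Y-linked genes Ddx3y, Eif2s3y, Kdm5d and Uty together had 3208, 1755 and 2769 reads in the Sox9-GOF tumours, against 1818, 5 and 0 reads in controls 1, 2 and 3. Xist, the RNA of the inactive X chromosome, had 0, 0.858 and 0 in Sox9-GOF tumours, against 7.1, 4871 and 4501 in controls. All 3 Sox9-GOF tumours and control 1 thus carried Y-linked reads, while controls 2 and 3 carried Xist, and none of the tests on all 6 libraries took sex into account. Rn45s, the precursor of ribosomal RNA, had 38186, 20115 and 100828 in Sox9-GOF tumours, against 7216, 6031 and 7087 in controls. Lars2, annotated as a tRNA synthetase of mitochondria, had 5536, 2846 and 12497 in Sox9-GOF tumours, against 1750.1, 2213 and 2674 in controls. Mir6236, annotated as a microRNA, had 637, 317 and 1355 in Sox9-GOF tumours, against 189, 115 and 246 in controls. In Rn45s, Lars2 and Mir6236 alike, Sox9-GOF 3 was the highest and Sox9-GOF 2 the lowest Sox9-GOF tumour. Whether reads at Lars2 and Mir6236 stem from those genes was not tested. Rn45s took 0.375%, 0.194% and 0.972% of the normalized reads in the Sox9-GOF tumours and 0.0754%, 0.0618% and 0.0754% in the controls. Rn45s was higher in every Sox9-GOF tumour, and its part in the other results was not tested.

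**Figure D1:**
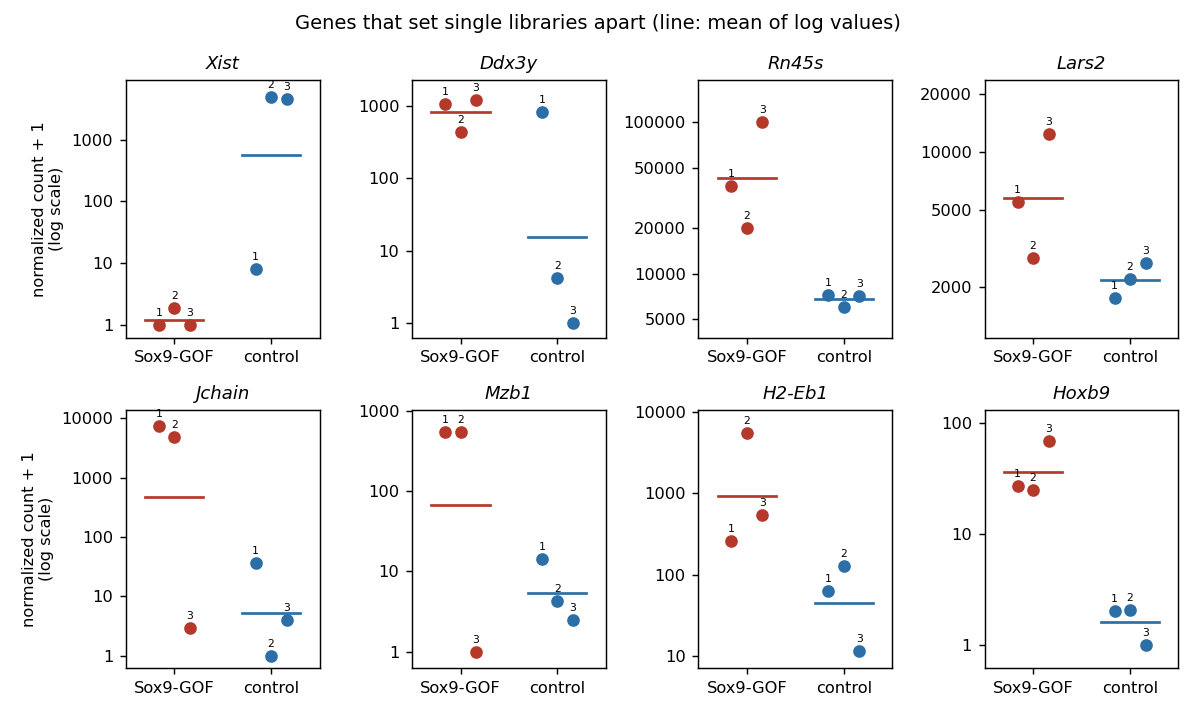
Normalized count + 1 (log axes, one scale per panel) of genes on which single libraries stood apart, with Sox9-GOF tumours on the left (red) and controls on the right (blue); numbers beside points are replicates and lines are means of log values. Xist was at or near 0 in all Sox9-GOF tumours and near 0 in control 1, and Jchain and Mzb1 were high in Sox9-GOF tumours 1 and 2 only.

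Chromosome 7 also set 1 library apart. Over 787 genes of that chromosome with a mean of at least 100 in one of the groups, the median deviation from the middle of the 6 libraries was 0.08, 0.03 and 0.11 on the log2 scale in the Sox9-GOF tumours, against -0.34, -0.02 and 0.01 in controls 1, 2 and 3. Genes of chromosome 7 thus stood at a median of 79.3% of the middle level in control 1. This held in each of 14 windows of 10 Mb, where the median of control 1 ran from -0.41 to -0.18, against -0.18 to 0.23 in the other 5 libraries. On the remaining chromosomes no library's median left the range from -0.12 to 0.11. The genomic state of the tumours was not measured here.

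**Figure D2:**
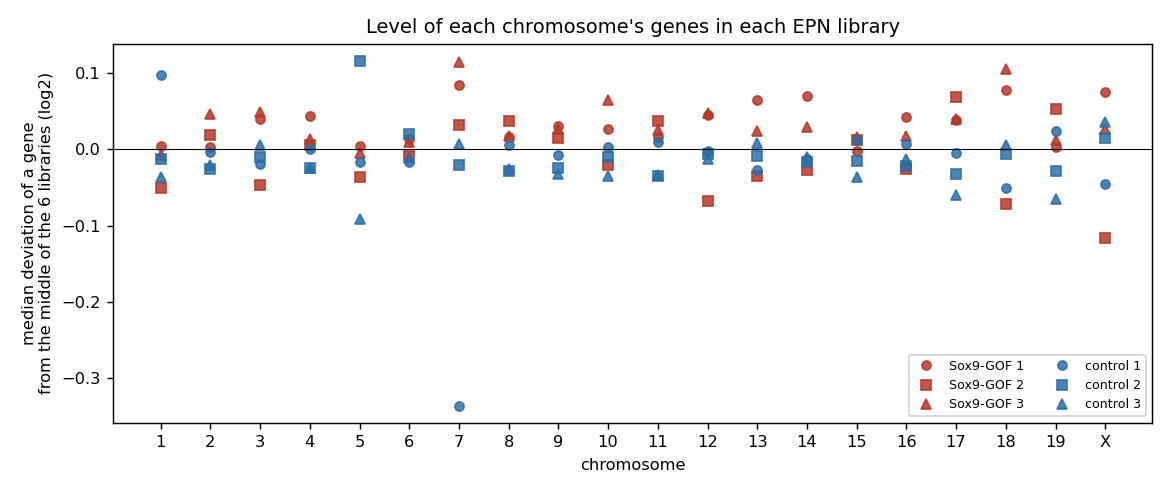
Median deviation of the genes of each chromosome (log2, vertical axis) in each EPN library, Sox9-GOF in red and control in blue, with a marker shape per replicate. Control 1 lies at -0.34 on chromosome 7, and every other point lies between -0.12 and 0.11.

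The label was checked first on Sox9 itself. Sox9 lies on chromosome 11, at chr11:112782224-112787760 of GRCm38, on the plus strand. It had 2058, 1805 and 2655 in Sox9-GOF tumours, against 1003, 992 and 1147 in controls, and averaged 2173 ± 436 in Sox9-GOF tumours and 1047 ± 86.5 in controls (SD, n = 3 each). Every Sox9-GOF tumour was above every control, with a ratio of means of 2.08 and a log2 fold change of 1.04 ± 0.18 (SE, limma). Its limma adjusted p was 0.133 over 14591 genes, and its DESeq2 adjusted p was 0.000261. An exact two-sided permutation test of the 6 values gave p = 0.1, the smallest that 3 against 3 libraries allow. Leaving out any single library kept the log2 fold change between 0.88 and 1.16. Reads of an introduced and of the mouse's own Sox9 are not separated in this table.

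Other SOX genes were split in direction. Of 15 family members in the fit besides Sox9, 7 were higher and 8 lower in Sox9-GOF tumours, with a median log2 fold change of -0.02 that was -0.40 without Sox9-GOF 1 and 0.03 without control 3. Sox2, a stem cell factor, had 334, 322 and 145 in Sox9-GOF tumours, against 684, 435 and 644 in controls, with no overlap of the groups and a DESeq2 adjusted p of 0.0449. Of the 15 members, Sox2 alone was called (6.67%, near the 4.94% of all genes called lower). DESeq2 called Sox2 in 2 of 6 fits that left out 1 library. Sox8, a close relative of Sox9 active in oligodendrocytes, had 93.2, 176 and 115 in Sox9-GOF tumours, against 206, 229 and 329 in controls, and DESeq2 did not call it (adjusted p 0.0744). Sox1, a marker of neural progenitors, had 10.1, 10.3 and 1.89 in Sox9-GOF tumours, against 30.4, 20.4 and 39 in controls, and DESeq2 did not call it either. Sox10, which acts with SOX9 in oligodendrocyte precursors, had 1709, 2117 and 3346 in Sox9-GOF tumours, against 1540.2, 1986 and 1919.5 in controls, and the groups overlapped.

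Across all genes, differences ran mostly downward in Sox9-GOF tumours once they were large. Limma fitted 14591 genes with a mean normalized count of at least 10 and called 0 of them at an adjusted p of 0.05 (0% of genes tested), and 71 genes shared the smallest adjusted p of 0.133. At an unadjusted p under 0.05 it counted 629 genes higher (4.31%) and 1567 lower (10.7%). The edgeR quasi-likelihood test on the recovered reads also called 0 genes (0%), with 2057 at an unadjusted p under 0.05. DESeq2 on the same reads called 121 genes higher (0.829%) and 721 lower (4.94%), 842 in all. Of these, 834 had groups that did not overlap and 838 also had an unadjusted limma p under 0.05. Calls below are DESeq2's unless another tool is named, and none of them passed in the limma fit of these 6 libraries or in edgeR. A limma fit that shared its spread over all 15 libraries of the series called 130 genes, 118 of them among DESeq2's.

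The number of DESeq2 calls moved with single libraries. It was 723, 1226 and 618 without Sox9-GOF 1, 2 and 3, and 451, 384 and 209 without control 1, 2 and 3. Of the 32 gene lists below with 1 to 4 called genes, 31 had fewer in at least 1 of these fits and 23 had 0, and their calls are given from all 6 libraries. Where 1 gene of a list was called, the call describes that gene and not the list. Counts of called members in the lists below stand against 0.829% of all genes called higher and 4.94% called lower. The groups did not overlap in 1379 genes higher (9.45%) and 1830 lower (12.5%) in Sox9-GOF tumours. With an absolute log2 fold change of at least 1 added, 69 genes were higher and 1155 lower. By sign alone, 55% of genes were higher and 45% lower, and the median log2 fold change was 0.04.

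**Figure D3:**
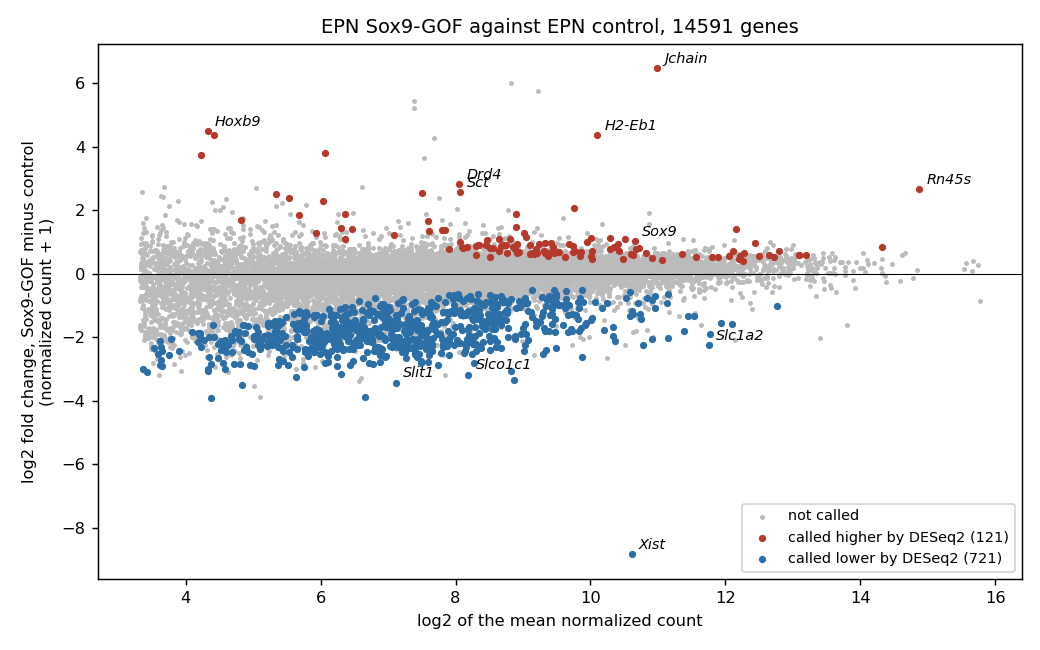
Log2 fold change of Sox9-GOF over control (vertical axis) against log2 of the mean normalized count (horizontal axis) for 14591 genes. Red points are the 121 genes that DESeq2 called higher, blue points the 721 called lower, and most blue points lie below -1.

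Genes with higher levels in Sox9-GOF tumours were few and of mixed roles. The 12 with the smallest limma p that passed the naming rule were Rgs1, Syce2, Sct, Hes7, Sox9, Osr2, Emilin2, Drd4, Rn45s, Ntf5, Adamts15 and Zfp771. DESeq2 called each of them. They were picked from the same libraries for a small p and groups that do not overlap. Their DESeq2 calls, also those without 1 library, are thus no independent support. Rgs1, which shortens signals from G protein-coupled receptors, had 119.9, 139.9 and 129 in Sox9-GOF tumours, against 37.5, 43 and 25.5 in controls, with a log2 fold change of 1.87 ± 0.30 (SE, limma) and a DESeq2 adjusted p of 2.57e-05. Hes7, a transcriptional repressor of the HES family known for its oscillation in the segmentation clock, had 331, 296 and 367 in Sox9-GOF tumours, against 163, 96.7 and 123 in controls, with a log2 fold change of 1.40 ± 0.24 (SE, limma) and a DESeq2 adjusted p of 0.000269. Syce2, a protein of the synaptonemal complex of meiosis, had 698, 763 and 722 in Sox9-GOF tumours, against 322, 403 and 258 in controls. In all 3 genes the lowest Sox9-GOF tumour stood well above the highest control.

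Osr2, a zinc finger factor of limb, palate and kidney development, had 98.9, 62.7 and 79.5 in Sox9-GOF tumours, against 19.3, 17.2 and 28.5 in controls. Emilin2, an elastic fibre glycoprotein, had 1643, 1294 and 2226 in Sox9-GOF tumours, against 774, 697 and 839 in controls, with a log2 fold change of 1.13 ± 0.22 (SE, limma) and a DESeq2 adjusted p of 0.000922. Adamts15, a protease that cleaves versican and aggrecan, had 2436, 1499 and 2044 in Sox9-GOF tumours, against 1188, 871 and 716 in controls. Sox9-GOF 3 was the highest library for Emilin2 and Sox9-GOF 1 for Osr2 and Adamts15. DESeq2 called Rgs1, Syce2, Hes7, Osr2 and Emilin2 in 6 of 6 fits that left out 1 library, and Adamts15 in 3 of 6. Ntf5, a neurotrophin, had 713, 497 and 618 in Sox9-GOF tumours, against 221, 356 and 284 in controls, and Zfp771, a zinc finger gene, had 221, 156 and 196 in Sox9-GOF tumours, against 90.2, 59.1 and 97.6 in controls. Both lie on chromosome 7. DESeq2 did not call Ntf5 without control 1 or control 3, nor Zfp771 without Sox9-GOF 1, control 1 or control 2. Without control 1 the log2 fold change was 0.92 for Ntf5, against 1.10 with all libraries, and 1.31 for Zfp771, against 1.22.

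**Figure D4:**
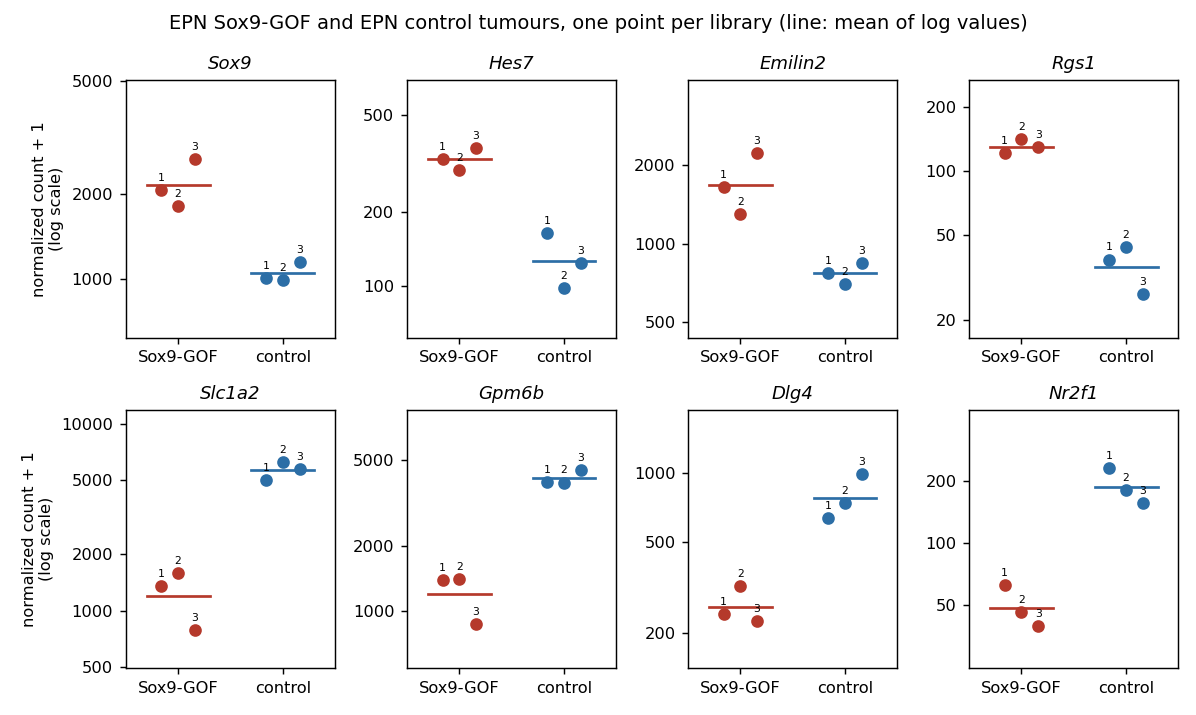
Normalized count + 1 (log axes, one scale per panel) of Sox9, 3 genes higher and 4 genes lower in Sox9-GOF tumours, which stand on the left (red) with controls on the right (blue); numbers beside points are replicates and lines are means of log values. In none of the 8 panels do the groups overlap, and Slc1a2 has 1348, 1593 and 789.7 in Sox9-GOF tumours against 5023 to 6240 in controls.

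Sct and Drd4, both among the leading genes, are neighbours on chromosome 7. Cdhr5, beside them, was looked at after its values were seen. Sct encodes the hormone secretin and had 729, 221 and 438 in Sox9-GOF tumours, against 95.3, 61.2 and 55.5 in controls, with a log2 fold change of 2.57 ± 0.45 (SE, limma) and a DESeq2 adjusted p of 8.11e-06. Drd4 encodes the dopamine receptor D4 and had 659, 306 and 408 in Sox9-GOF tumours, against 143, 32.2 and 48 in controls, with a log2 fold change of 2.82 ± 0.56 (SE, limma) and a DESeq2 adjusted p of 0.000532. Cdhr5, a cadherin of the intestinal brush border, had 39, 29.2 and 36.9 in Sox9-GOF tumours, against 2.03, 5.37 and 0 in controls, with a log2 fold change of 3.74 ± 0.76 (SE, limma) and a DESeq2 adjusted p of 0.00121. For all 3 genes every Sox9-GOF tumour was above every control, and DESeq2 called Sct and Drd4 in 6 of 6 fits that left out 1 library. Sct and Drd4 were picked for a small p and groups that do not overlap, so this is no independent support. The same holds for Cdhr5, which was picked by its values. For Sct and Drd4 control 1 was the highest control, although it was the library with low levels across chromosome 7.

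The 3 genes span 27385 bases in GRCm38, with Cdhr5 at chr7:141269080-141276795, Sct at chr7:141278329-141279174 and Drd4 at chr7:141291974-141296464. The genes on either side were not called. Irf7, an interferon regulator at chr7:141263183-141266499, had 4183, 4353 and 1901 in Sox9-GOF tumours, against 2838, 2315 and 1172 in controls, with a DESeq2 adjusted p of 0.432, and the groups overlapped. Deaf1, a transcription factor that begins 711 bases beyond Drd4, had 270.1, 316 and 298 in Sox9-GOF tumours, against 246, 243 and 318 in controls, with a log2 fold change of 0.14 and a DESeq2 adjusted p of 0.872. The promoters of the 3 genes are shown because the genes are adjacent and were all higher in Sox9-GOF tumours. They run from 250 bases before to 50 after a transcription start, read from RefSeq on GRCm38.p6 on the strand of the gene. These starts lie inside the gene spans given above and not at their outer ends. Capitals mark the SOX core ACAAT or its reverse complement ATTGT, searched on both strands.
Cdhr5 (chr7:141276737-141277036, minus strand): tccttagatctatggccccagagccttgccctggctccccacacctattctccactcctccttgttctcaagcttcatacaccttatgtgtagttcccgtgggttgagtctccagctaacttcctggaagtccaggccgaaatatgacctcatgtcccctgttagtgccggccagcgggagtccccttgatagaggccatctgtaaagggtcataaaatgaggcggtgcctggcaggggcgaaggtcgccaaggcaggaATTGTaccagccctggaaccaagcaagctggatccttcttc
Sct (chr7:141279084-141279383, minus strand): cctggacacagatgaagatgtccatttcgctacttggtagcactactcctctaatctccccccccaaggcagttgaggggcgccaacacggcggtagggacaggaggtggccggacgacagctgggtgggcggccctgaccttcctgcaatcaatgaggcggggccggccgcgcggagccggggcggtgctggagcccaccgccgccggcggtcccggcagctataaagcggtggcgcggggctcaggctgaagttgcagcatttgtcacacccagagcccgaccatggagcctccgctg
Drd4 (chr7:141291768-141292067, plus strand): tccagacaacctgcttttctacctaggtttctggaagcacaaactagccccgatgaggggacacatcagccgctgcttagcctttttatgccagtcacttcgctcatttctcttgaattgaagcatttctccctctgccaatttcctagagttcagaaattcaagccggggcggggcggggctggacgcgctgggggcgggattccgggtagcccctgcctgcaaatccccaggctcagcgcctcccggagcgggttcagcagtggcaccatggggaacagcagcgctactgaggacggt
The core occurred 1 time in the Cdhr5 promoter and 0 times in those of Sct and Drd4. Of all 32851 promoters of that table, 31% held it, so a match is a description and not a binding site. No binding was measured here.

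Chromosome 7 as a whole also leaned upward. It held 25 of the 113 genes called higher that could be placed on a chromosome (22.1%), against 1054 of 13928 fitted genes (7.57%). It held 51 of 695 genes called lower (7.34%). Without control 1, 5 of 43 genes called higher lay there (11.6%), against 7.6% of fitted genes. The median log2 fold change of chromosome 7 was 0.18 with all libraries and 0.08 without control 1, where the median over all genes was 0.04.

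Genes with lower levels were more numerous, and many of the leading ones are known from neurons and glia. The 12 leading ones were Miat, Fras1, Slc1a2, Gpm6b, Spock1, Slco1c1, Cadm2, Tmtc1, Slc7a2, Gpr34, Dlg4 and Cacna1e. DESeq2 called each in all 6 fits that left out 1 library. These genes were picked from the same libraries for a small p and groups that do not overlap, so such calls are no independent support. Miat, a long noncoding RNA of nuclear bodies, had 37.5, 40.3 and 23.7 in Sox9-GOF tumours, against 185, 193 and 225 in controls, with a log2 fold change of -2.57 ± 0.29 (SE, limma) and a DESeq2 adjusted p of 2.87e-11. Fras1, a matrix protein that anchors epithelia to their basement membrane, had 11.6, 19.7 and 17 in Sox9-GOF tumours, against 113, 106 and 135 in controls, with a log2 fold change of -2.82 ± 0.33 (SE, limma) and a DESeq2 adjusted p of 6.37e-10. In both genes the lowest control stood far above the highest Sox9-GOF tumour.

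Slc1a2, the main glutamate transporter of astrocytes, had 1348, 1593 and 789.7 in Sox9-GOF tumours, against 5023, 6239.7 and 5744 in controls, with a log2 fold change of -2.24 ± 0.27 (SE, limma) and a DESeq2 adjusted p of 6.37e-10. Gpm6b, a membrane proteolipid of neurons and glia, had 1387, 1405 and 868 in Sox9-GOF tumours, against 3968, 3944 and 4511 in controls. Slco1c1, a thyroid hormone transporter of brain vessels and astrocytes, had 86.7, 76.4 and 27.5 in Sox9-GOF tumours, against 515, 579 and 468 in controls, with a log2 fold change of -3.17 ± 0.43 (SE, limma) and a DESeq2 adjusted p of 8.27e-10. Sox9-GOF 3 was the lowest library for all 3 genes. Spock1, a testican of the brain matrix, had 83, 96.1 and 100.4 in Sox9-GOF tumours, against 313, 263 and 387 in controls. Cadm2, a synaptic adhesion molecule, had 163, 101 and 142 in Sox9-GOF tumours, against 395, 434 and 512 in controls. Slc7a2, a transporter of cationic amino acids, had 175, 173 and 133 in Sox9-GOF tumours, against 396, 389 and 396 in controls, with nearly equal values inside the control group. Fold changes of the other leading genes lay between -2.13 for Tmtc1 and -1.25 for Gpr34.

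Genes of the synapse were lower as a group. All 31 of 31 synaptic vesicle and scaffold genes had log2 fold changes below 0, against 45% of all genes, and DESeq2 called 20 of them, against 4.94% of all genes. Their median log2 fold change was -1.59, and it stayed between -1.90 and -1.27 when 1 library was left out. The number called was 4 without control 3 and between 15 and 22 without any other library. Dlg4 encodes PSD-95, the main scaffold behind glutamate receptors, and had 239.7, 318 and 223 in Sox9-GOF tumours, against 632, 735 and 991 in controls, with a log2 fold change of -1.58 ± 0.23 (SE, limma) and a DESeq2 adjusted p of 4.96e-06. Sv2a, a glycoprotein of synaptic vesicles, had 133, 164 and 69.1 in Sox9-GOF tumours, against 369, 345 and 683 in controls, and Syp, synaptophysin of the same vesicles, had 407, 311 and 158 in Sox9-GOF tumours, against 805, 755 and 1409 in controls. Control 3 was the highest library and Sox9-GOF 3 the lowest for Sv2a and Syp.

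Receptors, channels and peptides followed the same direction. Of 26 neurotransmitter receptor genes, 25 were lower, DESeq2 called 12, and the median was -1.42. Without control 3 it called 0 of them, without control 2 it called 4, and without Sox9-GOF 2, Sox9-GOF 3 or control 1 it called 6. Grm5, a metabotropic glutamate receptor, had 49.1, 30.9 and 16.1 in Sox9-GOF tumours, against 121, 109.6 and 215 in controls, and the groups did not overlap. Of 28 ion channel genes of neurons and glia, 28 were lower, 17 were called, and the median was -1.89. The number called was 3 without control 3, 10 without control 2 and 11 without Sox9-GOF 3. Cacna1e, the pore of R-type calcium channels, had 43.3, 54.9 and 38.8 in Sox9-GOF tumours, against 275, 180.5 and 152 in controls, with a log2 fold change of -2.09 ± 0.31 (SE, limma) and a DESeq2 adjusted p of 2.78e-06. Kcna2, a delayed rectifier potassium channel of axons, had 96, 55.8 and 34.1 in Sox9-GOF tumours, against 249, 218 and 485 in controls. Kcnj10, the potassium channel Kir4.1 of astrocytes, had 1159, 2469 and 1335 in Sox9-GOF tumours, against 3775, 3955 and 4100.2 in controls, so a glial channel was lower too. Of 21 neuropeptide and granin genes, 19 were lower, 10 were called, and the median was -2.21, with 1 called without control 3 and 5 without control 2. Vgf, a secreted neuronal precursor protein, had 43.3, 48.1 and 15.2 in Sox9-GOF tumours, against 147, 168 and 324 in controls, and Bdnf, a neurotrophin, had 15.9, 42.9 and 29.4 in Sox9-GOF tumours, against 75, 92.4 and 156 in controls.

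Markers of neurons, which the tumour piece can hold from surrounding brain, were summed per library. The 24 neuron markers summed to 5759, 5301 and 4321 in Sox9-GOF tumours, against 9639, 10324 and 19173 in controls, and 16 were called lower. Of 17 cortical neuron lineage factors in the fit, 12 were lower and 5 higher, with a median log2 fold change of -0.80. DESeq2 called 4 of them lower (23.5%, against 4.94% of all genes), with Tbr1, Rorb and Neurod6 among them. Rorb had 39.7, 44.6 and 15.2 in Sox9-GOF tumours, against 95.3, 158 and 161 in controls. In the 6 fits that left out 1 library, Tbr1 was called in 5, Rorb in 4 and Neurod6 in 2. The part of neuron content in the lower synaptic genes was not tested. With control 3 left out, whose neuron sum was the highest, the neuron median was -1.74, against -2.16 with all libraries, and 0 markers were called. Without Sox9-GOF 3 and without control 2 the number called was 8 and 9. None of the 24 markers was without reads in all libraries.

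Glial genes were lower in several lineages. Of 22 astrocyte markers, 21 were lower, 7 were called, and the median was -0.92, or -1.49 without Sox9-GOF 2. The number called was 14 without Sox9-GOF 2, and 4, 2 and 3 without control 1, 2 and 3. Fgfr3, a receptor kinase of astrocytes and their progenitors, had 201, 298 and 116 in Sox9-GOF tumours, against 529, 605 and 485 in controls, with a log2 fold change of -1.49 ± 0.34 (SE, limma) and a DESeq2 adjusted p of 0.00623. Ndrg2, another astrocyte gene, had 408, 1160.5 and 280.3 in Sox9-GOF tumours, against 2055, 1880.1 and 1981 in controls, with Sox9-GOF 2 closest to the controls. Of 16 oligodendrocyte precursor markers, 15 were lower, 6 were called, and the median was -1.66, with 11 called without Sox9-GOF 2 and 3 without control 3. Tnr, a matrix glycoprotein of perineuronal nets, had 67.9, 79.8 and 29.4 in Sox9-GOF tumours, against 272, 307 and 242 in controls, with a log2 fold change of -2.31 ± 0.39 (SE, limma) and a DESeq2 adjusted p of 1.98e-05. Lhfpl3, a membrane protein of these precursors, had 73.7, 206 and 84.3 in Sox9-GOF tumours, against 524, 434 and 413 in controls. Gpr17, a receptor of committed precursors, had 183, 373 and 72 in Sox9-GOF tumours, against 634, 825 and 1039 in controls. Of 16 markers of mature oligodendrocytes, 12 were lower and 2 were called lower, Ugt8a and Fa2h (12.5%, against 4.94% of all genes). The median of the 16 markers was -1.46, or -0.86 without Sox9-GOF 3. Without Sox9-GOF 2, 11 were called.

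Summed levels showed less of a gap than single genes. The astrocyte markers summed to 75886, 203850 and 124401 in Sox9-GOF tumours, against 213258, 176935 and 175024 in controls, so these sums overlapped. The oligodendrocyte precursor markers summed to 7159, 13609.6 and 16446 in Sox9-GOF tumours, against 15389, 16363 and 16601 in controls, and overlapped as well.

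Genes of neural stem cells and forebrain identity were mixed. Of 22 neural stem and radial glia genes, 14 were lower and 8 higher, and 4 were called lower (18.2%, against 4.94% of all genes). The median was -0.37, or -0.59 without Sox9-GOF 2. Ptprz1, a receptor phosphatase of radial glia and precursors, had 391, 566 and 228 in Sox9-GOF tumours, against 1245, 1472 and 1196 in controls. Slc1a3, the glutamate transporter of radial glia, had 1584, 2825 and 621 in Sox9-GOF tumours, against 5138, 6302 and 4448 in controls, with a log2 fold change of -1.90 ± 0.50 (SE, limma) and a DESeq2 adjusted p of 0.0161. Vim and Nes, intermediate filaments of progenitors, had overlapping groups. Vim had 17978, 22982 and 24188 in Sox9-GOF tumours, against 19383, 17561 and 19941 in controls. Nfia, Nfib and Nfix, partners of SOX9 in glial development, were not called, with log2 fold changes of -0.27, -0.40 and -0.35.

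Among forebrain patterning factors, 9 of 15 were lower and 2 were called lower (13.3%, against 4.94% of all genes). Nr2f1, a nuclear receptor that sets cortical areas, had 61.4, 45.5 and 38.8 in Sox9-GOF tumours, against 231, 179 and 156 in controls, with a log2 fold change of -1.94 ± 0.29 (SE, limma) and a DESeq2 adjusted p of 3.39e-06. Emx1, a factor of the dorsal forebrain, had 5.05, 4.29 and 2.84 in Sox9-GOF tumours, against 19.3, 22.6 and 19.5 in controls, a low level in all libraries. Lhx2 and Pax6 were higher without overlap, Pax6 with 240.5, 241 and 276 in Sox9-GOF tumours, against 239, 135 and 158 in controls, and neither was called. Of 24 HOX genes, which normally mark the trunk, 3 reached the fit, and Hoxb9 alone was called. It had 26, 24 and 68.2 in Sox9-GOF tumours, against 1.01, 1.07 and 0 in controls, from 136 and 2 reads, a ratio of 48.7 with a 95% counting interval of 13.2 to 406. Hoxa9 and Hoxa10 were high in Sox9-GOF 1 only, at 121 and 206, and at or under 10.7 in the other 5 libraries, and had no DESeq2 adjusted p.

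Axon guidance and cell adhesion genes were lower more often than higher. Of 36 guidance genes, 27 were lower, 7 were called lower, and the median was -0.63, with 4 called without Sox9-GOF 3 and without control 3. Plxna4, a semaphorin receptor, had 75.8, 56.6 and 72.9 in Sox9-GOF tumours, against 207, 203 and 321 in controls, with a log2 fold change of -1.79 ± 0.27 (SE, limma) and a DESeq2 adjusted p of 6.57e-06. Slit3, a ligand of ROBO receptors, had 6.5, 7.72 and 5.68 in Sox9-GOF tumours, against 40.6, 39.8 and 37.5 in controls. Slit1, its relative, had 12.3, 11.2 and 24.6 in Sox9-GOF tumours, against 597, 112 and 75 in controls, where control 1 stood far above the other controls. Sema5a had 113, 147 and 148 in Sox9-GOF tumours, against 339.7, 259 and 349.7 in controls. Of 25 cadherins and protocadherins, 24 were lower, 4 were called, and the median was -0.66, with 0 called without control 3. Pcdh15 had 32.5, 32.6 and 19.9 in Sox9-GOF tumours, against 78.1, 93.5 and 123 in controls, with a log2 fold change of -1.77 ± 0.34 (SE, limma) and a DESeq2 adjusted p of 0.000959.

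Signalling genes were called singly rather than as pathways. Of 23 BMP genes, 16 were lower and 3 were called lower (13%, against 4.94% of all genes). The BMP median was -0.43 and stayed between -0.55 and -0.43 when 1 library was left out. Nbl1, a secreted BMP antagonist, had 513, 615 and 347 in Sox9-GOF tumours, against 1459, 1001 and 1444 in controls, with a log2 fold change of -1.42 ± 0.26 (SE, limma) and a DESeq2 adjusted p of 0.000303. Bmpr1b, a type I BMP receptor, had 37.5, 57.5 and 29.4 in Sox9-GOF tumours, against 89.2, 147 and 192 in controls, and Chrdl1, another antagonist, had 85.9, 114 and 29.4 in Sox9-GOF tumours, against 168, 274 and 287 in controls. These genes were picked for a small p, and 7 of the 23 BMP genes were higher. Bmp6, a BMP ligand picked the same way, went the other way with a log2 fold change of 0.70 and was not called.

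Of 30 WNT genes, 19 were lower and 2 were called lower (6.67%, near the 4.94% of all genes). These were Dkk3, a secreted glycoprotein of the Dickkopf family, with 331, 498 and 163 in Sox9-GOF tumours, against 1243, 902 and 1119.6 in controls, and Notum, a WNT-inactivating esterase, with 7.94, 17.2 and 13.3 in Sox9-GOF tumours, against 86.2, 38.7 and 48 in controls. Sfrp1, a secreted WNT antagonist, went the other way, with 9294, 5792 and 11215 in Sox9-GOF tumours, against 3326, 5491 and 4864 in controls and a DESeq2 adjusted p of 0.0546. The WNT median of -0.33 was -0.06 without control 1. Of 28 genes for EGF, FGF, PDGF and MET ligands and receptors, 21 were lower and 2 were called lower (7.14%, also near that share), Fgfr3 and Egfr, the EGF receptor, with 84.5, 128 and 60.6 in Sox9-GOF tumours, against 250.4, 268 and 158 in controls.

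In the NOTCH, hedgehog, TGF-beta and insulin-like growth factor lists DESeq2 called 1 gene each, all lower, which is 4.76%, 6.67%, 4.17% and 5.26% of their members, near the 4.94% of all genes called lower. The receptor Notch3 had 100.4, 123 and 106 in Sox9-GOF tumours, against 144, 261 and 252 in controls. Gas1, a hedgehog co-receptor, had 487, 600.0 and 515 in Sox9-GOF tumours, against 1020.0, 689.7 and 1006 in controls. Ctgf, a matricellular TGF-beta target, had 479, 409 and 486 in Sox9-GOF tumours, against 979, 578 and 789 in controls. In all of these the groups did not overlap, and the same held for Irs2, an adaptor of the insulin receptor, with 80.9, 76.4 and 89 in Sox9-GOF tumours, against 159, 139.7 and 125 in controls. The list medians were -0.20 for NOTCH, -0.02 for hedgehog, -0.04 for TGF-beta and -0.39 for the insulin-like growth factor axis. Without control 1 the hedgehog median was 0.01 and the TGF-beta median 0.08, so both turned direction. Among 16 genes of ERK feedback and ETS response 0 were called, with 2 at an unadjusted limma p under 0.05 and 0 called by edgeR.

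Genes known in forebrain ependymoma with the ZFTA-RELA fusion, an oncogene that joins a chromatin protein to an NF-kB subunit, were more often lower than higher. Of 20 in the fit, 14 were lower, against 45% of all genes, and the median log2 fold change was -0.19. DESeq2 called 4 lower (20%, against 4.94% of all genes). These were Spock1, Fgfr3, Ccnd2, a cyclin of neural progenitors, with 1094, 1629 and 1467 in Sox9-GOF tumours, against 2018, 2599.9 and 2692 in controls, and L1cam, an adhesion molecule used as a marker of that tumour type, with 47.7, 40.3 and 32.2 in Sox9-GOF tumours, against 63.9, 95.6 and 149 in controls. Ccnd1, the related cyclin, had 8578, 6815 and 9028 in Sox9-GOF tumours, against 4503, 7092 and 6797 in controls, and the groups overlapped. In the 6 fits that left out 1 library, Spock1 was called in 6, Fgfr3 in 4, Ccnd2 in 2 and L1cam in 1. Of 22 NF-kB genes, 17 were higher, and Bcl3, a nuclear IkB protein, was called, with 626, 546 and 641 in Sox9-GOF tumours, against 413, 388 and 323 in controls. The NF-kB median of 0.15 was -0.05 without Sox9-GOF 2 and -0.23 without control 3. Rela had 667, 1043 and 1304 in Sox9-GOF tumours, against 808, 1014 and 695 in controls.

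Known cartilage targets of SOX9 were split in direction. Of 16 in the fit, 8 were higher and 8 lower, with a median of 0.05 that was -0.57 without control 1, and the 2 called, Fmod and Matn4, were lower in Sox9-GOF tumours. Fmod, a collagen-binding proteoglycan, had 16.6, 51.5 and 29.4 in Sox9-GOF tumours, against 186, 84.9 and 139.6 in controls. Matn4, a matrilin, had 109, 257 and 91.8 in Sox9-GOF tumours, against 697, 285 and 434 in controls. Col2a1, the main cartilage collagen and a classic SOX9 target, had 5204, 1547 and 595 in Sox9-GOF tumours, against 135, 6822 and 1449.8 in controls. Control 1 was the lowest library and control 2 the highest for Col2a1, so the controls spanned all the Sox9-GOF values. Acan, aggrecan, had 5928, 3742 and 2374 in Sox9-GOF tumours, against 942, 4937 and 2074 in controls, and without control 1 its log2 fold change was 0.23, against 0.82 with all libraries.

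Small upward shifts were shared by genes of protein synthesis and sterol synthesis. All 27 of 27 cytoplasmic ribosomal protein genes had log2 fold changes above 0, against 55% of all genes, with a median of 0.44. In 22 of 27 the groups did not overlap, against 9.45% of all genes, and DESeq2 called 3, Rps3 and Rplp2 among them. All 3 called genes lie on chromosome 7, where control 1 was low, and 0 members were called without control 1, 2 or 3. Rps3 had 10250.3, 11733 and 9702 in Sox9-GOF tumours, against 6412, 7297 and 7136 in controls. The 5 members on chromosome 7 had a median of 0.53 with and without control 1. The 22 members elsewhere had a median of 0.40, or 0.46 without control 1, with 0 called. The list's median was 0.26 without Sox9-GOF 2, whose ribosomal sum of 290934 was the highest, against 159084 to 210570 in the other 5 libraries.

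Of 21 genes of cholesterol synthesis and uptake, 21 were higher, with a median of 0.45 and a range of 0.35 to 0.52 when 1 library was left out. Lss, which closes the sterol ring, had 670.1, 697 and 706 in Sox9-GOF tumours, against 409.6, 427 and 465 in controls, with a log2 fold change of 0.67 ± 0.14 (SE, limma) and a DESeq2 adjusted p of 0.00367. Fdps, which makes farnesyl diphosphate, had 1327, 1227 and 923 in Sox9-GOF tumours, against 657, 696 and 765 in controls. These 2 were called, and Lss was tight within both groups. Of 20 genes of the unfolded protein response, 19 were higher, with a median of 0.34, and Trib3, a stress-induced pseudokinase, was called, with 325, 350.2 and 386 in Sox9-GOF tumours, against 194, 233 and 173 in controls. Of 12 steroidogenic genes, 8 were higher and 4 lower, with a median of 0.51 that was 0.18 without Sox9-GOF 3. Fdx1 and Fdxr were called higher, the ferredoxin and its reductase that pass electrons to mitochondrial P450 enzymes. Each was called in 2 of 6 fits that left out 1 library. Fdx1 had 388, 460.1 and 550.1 in Sox9-GOF tumours, against 269, 244 and 267 in controls. Fdxr had 1311, 1460.0 and 2023 in Sox9-GOF tumours, against 880.1, 895 and 973 in controls, without overlap of the groups in either gene. Nr5a1, the steroidogenic factor, had 4269.8, 3399 and 3941 in Sox9-GOF tumours, against 2904, 2217 and 3461 in controls, and was not called.

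Cell cycle genes leaned upward, mostly in 1 library. All 28 of 28 had log2 fold changes above 0, with a median of 0.41, and 0 were called by DESeq2, edgeR or limma, with 1 at an unadjusted limma p under 0.05. Without Sox9-GOF 1 the median was 0.08, and without Sox9-GOF 3 it was 0.63. Mki67, a marker of cycling cells, had 4582, 2009 and 1914 in Sox9-GOF tumours, against 1446, 2236 and 1486 in controls. Sox9-GOF 1 alone stood out, and the other 2 Sox9-GOF tumours lay within the range of the controls. Cdkn2a, which encodes the cell cycle inhibitors p16 and p19, had 1786, 1530.4 and 1819.9 in Sox9-GOF tumours, against 872, 1220.4 and 1036 in controls, with a log2 fold change of 0.72 ± 0.17 (SE, limma) and a DESeq2 adjusted p of 0.0175, and was called higher.

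Few metabolic and stress genes were called. Of 24 hypoxia and glycolysis genes, 18 were higher, and the 1 called gene was lower: Slc2a3, a glucose transporter of neurons, with 98.2, 106 and 44.5 in Sox9-GOF tumours, against 180.5, 226 and 288 in controls. Vegfa, an angiogenic factor induced by hypoxia, had 3558, 4232 and 8212 in Sox9-GOF tumours, against 2194, 3222 and 2694 in controls, highest in Sox9-GOF 3, and was not called. Of 21 immediate early genes, DESeq2 called Ier2, Jund and Nr4a1 higher and Egr3 lower. That is 3 of 21 higher, against 0.829% of all genes, and 1 lower (4.76%, near the 4.94% of all genes). In the 6 fits that left out 1 library, Nr4a1 was called in 3, Jund and Egr3 in 1 each and Ier2 in 0. Nr4a1, a nuclear receptor induced by many stimuli, had 1005, 1106 and 2196 in Sox9-GOF tumours, against 535, 828 and 522 in controls. Egr3, which neuronal activity induces, had 33.2, 27.5 and 43.6 in Sox9-GOF tumours, against 50.7, 192 and 90 in controls. Of 25 nuclear oxidative phosphorylation genes 22 were higher, with a median of 0.16 (0.08 without control 2) and 0 called, and 0 at an unadjusted limma p under 0.05. Histone acetylation (30 genes) and polycomb and histone methylation (29 genes) had medians of 0.14 and 0.15, the second 0.03 without Sox9-GOF 1, with 0 called in either, and 1 and 0 genes at an unadjusted limma p under 0.05.

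**Figure D5:**
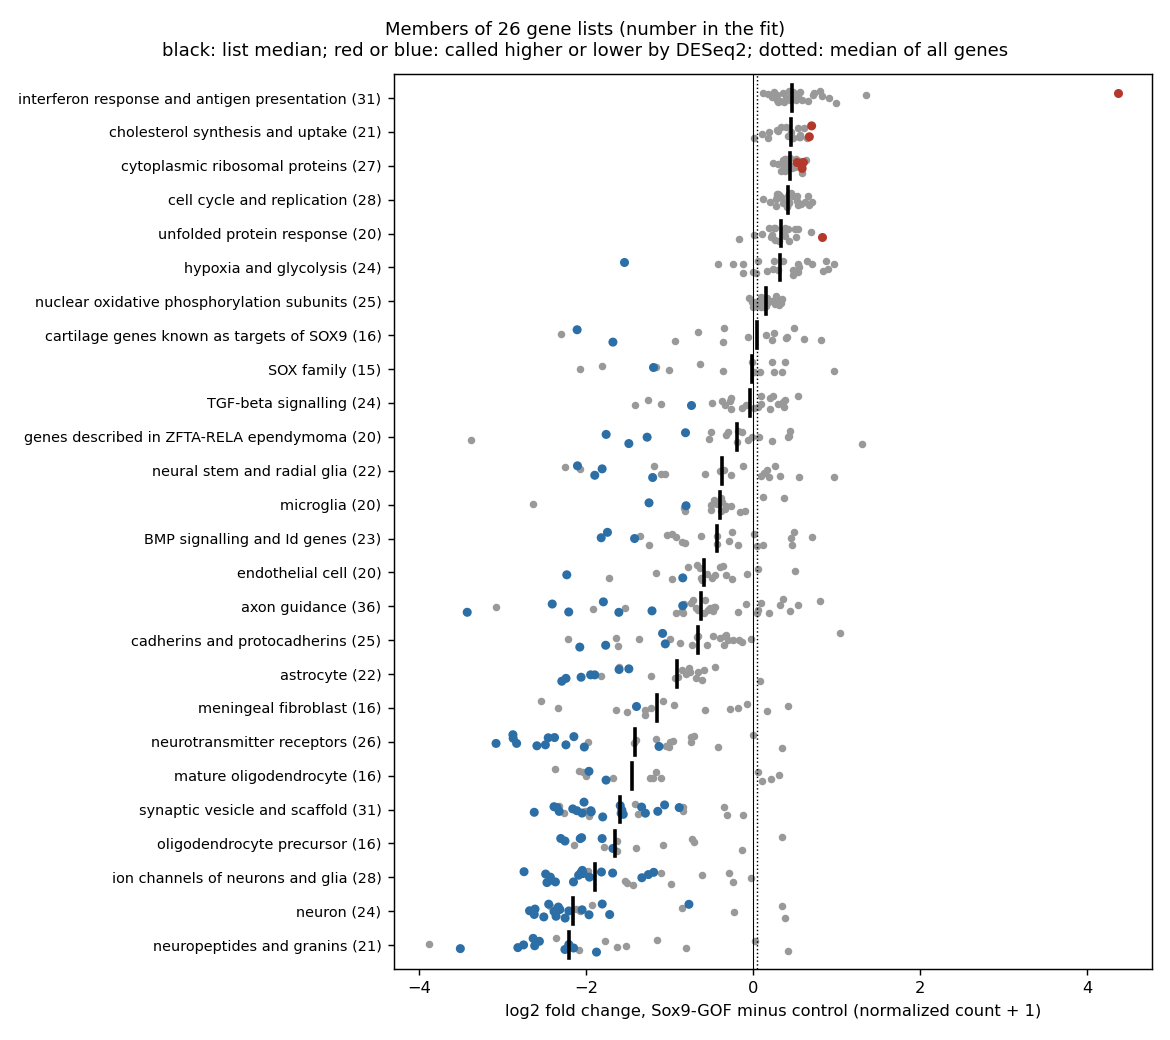
Log2 fold change of Sox9-GOF over control (horizontal axis) for each member of 26 gene lists (rows, with the number in the fit), sorted by median. Black bars are list medians, red and blue points were called higher and lower by DESeq2, and the lists farthest left are those of neuropeptides, neurons, ion channels, oligodendrocyte precursors and synapses, with medians from -2.21 to -1.59.

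Immune genes differed widely between single libraries of both groups. All 31 of 31 genes of interferon response and antigen presentation had log2 fold changes above 0, with a median of 0.47, and 1 was called. The median was 0.23 without Sox9-GOF 1, 0.81 without Sox9-GOF 3 and 0.06 without control 3, where these genes summed to 50767, against 118206 and 134802 in controls 1 and 2 and 70808 to 196847 in Sox9-GOF tumours. The called gene was H2-Eb1, a class II antigen-presenting chain, with 263, 5582 and 548 in Sox9-GOF tumours, against 61.9, 126 and 10.5 in controls. Other class II chains overlapped between the groups. H2-Aa had 11627, 19071 and 2048 in Sox9-GOF tumours, against 6486, 8726 and 1223 in controls, and H2-Ab1 had 9433, 15077 and 1625 in Sox9-GOF tumours, against 5429, 6258 and 869 in controls. Sox9-GOF 2 held most of the H2-Eb1 signal, and control 3 was the lowest library for all 3 genes.

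Of 20 microglia markers, 18 were lower with a median of -0.40, and 2 were called lower (10%, against 4.94% of all genes). Gpr34, a lysophosphatidylserine receptor of microglia, had 169, 164 and 172 in Sox9-GOF tumours, against 369, 374 and 468 in controls, with a log2 fold change of -1.25 ± 0.18 (SE, limma) and a DESeq2 adjusted p of 3.38e-06. P2ry12, the purinergic receptor of resting microglia, had 374, 344 and 274 in Sox9-GOF tumours, against 491, 574 and 669 in controls. The microglia median was 0.04 without Sox9-GOF 3, and -0.88 without Sox9-GOF 2, so the list's direction rests on single libraries. DESeq2 called Gpr34 in 6 of 6 fits that left out 1 library and P2ry12 in 3. Both genes were picked for a small p in these same libraries, so such calls are no independent support. Csf1r, the receptor microglia need to survive, had 2291, 5928 and 1805 in Sox9-GOF tumours, against 6337, 5695 and 3854 in controls, and the groups overlapped. Border macrophage (13 genes), neutrophil (6 genes), complement (20 genes) and chemokine (28 genes) lists had 0 called genes by DESeq2 or edgeR, with 2, 0, 1 and 1 genes at an unadjusted limma p under 0.05.

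Several genes of B cells and antibody secretion were high in 2 of the 3 Sox9-GOF tumours, and all of them were picked after their values were seen. Jchain, the joining chain of secreted antibodies, had 7321, 4837 and 1.89 in Sox9-GOF tumours, against 35.5, 0 and 3 in controls. Mzb1, a chaperone of antibody assembly, had 546, 546 and 0 in Sox9-GOF tumours, against 13.2, 3.22 and 1.5 in controls. Irf4, a regulator of plasma cells, had 134, 113 and 4.74 in Sox9-GOF tumours, against 7.1, 12.9 and 4.5 in controls, and Pou2af1, a B cell coactivator, had 198, 119 and 24.6 in Sox9-GOF tumours, against 10.1, 19.3 and 22.5 in controls. DESeq2 called Jchain, Irf4 and Pou2af1 and did not call Mzb1 (adjusted p 0.0804), although Sox9-GOF 3 lay near the controls in all 4 genes. Cd79a, a chain of the B cell receptor, had another pattern, with 1696, 186 and 100.4 in Sox9-GOF tumours, against 86.2, 122 and 982 in controls. It was high in Sox9-GOF 1 and control 3, and the groups overlapped. Of 16 lymphocyte markers 0 were called by DESeq2 or edgeR, with 0 at an unadjusted limma p under 0.05. Their median of 0.56 was -0.25 without Sox9-GOF 1, -0.45 without Sox9-GOF 2, 2.18 without Sox9-GOF 3, 1.05 without control 2 and -0.13 without control 3. Their sums were 2616, 1725 and 162 in Sox9-GOF tumours and 632, 763 and 1189 in controls.

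By count of markers, genes of vessels and mesenchyme were mostly lower, while their summed levels overlapped between the groups. Of 20 endothelial markers, 18 were lower with a median of -0.58 (-0.37 without Sox9-GOF 3). Of these, 2 were called lower (10%, against 4.94% of all genes). Slco1a4, an organic anion transporter of the blood-brain barrier, had 54.9, 112 and 27.5 in Sox9-GOF tumours, against 269, 359 and 191 in controls, and Mfsd2a, the lipid transporter of that barrier, had 175, 268 and 249 in Sox9-GOF tumours, against 380.2, 378 and 471 in controls. Of 14 pericyte and smooth muscle genes, Mcam and the intermediate filament gene Des were called higher and Notch3 lower. Des was highest in Sox9-GOF 1, at 706, and the groups overlapped. Mcam, an adhesion molecule of pericytes and tumour cells, had 1336, 1376 and 2383 in Sox9-GOF tumours, against 782, 912 and 1037 in controls, highest in Sox9-GOF 3. Of 16 meningeal fibroblast markers, 14 were lower with a median of -1.16, or -0.71 without Sox9-GOF 1. Dcn, decorin, was the 1 called gene, with 659, 660.1 and 1682 in Sox9-GOF tumours, against 3021, 1859.7 and 2443 in controls. Col1a1 had 20374, 13327 and 9368 in Sox9-GOF tumours, against 13877, 22378 and 11879 in controls. The meningeal markers summed to 129443, 65547 and 69214 in Sox9-GOF tumours, against 65404, 99748 and 65071 in controls. Pericyte and smooth muscle genes summed to 5708, 5288 and 5881, against 5711, 6288 and 5223. Endothelial markers summed to 6026, 8376 and 6016, against 8347, 9534 and 9125.

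Matrix genes split by gene. Timp4, an inhibitor of metalloproteinases, had 66.4, 98.7 and 73.9 in Sox9-GOF tumours, against 296, 194 and 242 in controls, with a log2 fold change of -1.60 ± 0.26 (SE, limma) and a DESeq2 adjusted p of 5.58e-05. Mmp17 and Mmp24, membrane-bound metalloproteinases, were called lower, Mmp17 with 114, 57.5 and 32.2 in Sox9-GOF tumours, against 211, 211 and 353 in controls. Adamts15 was higher, so within 27 matrix protease genes 1 was called higher and 3 lower. Col5a3, a fibrillar collagen chain, was the 1 called among 28 collagens outside cartilage, with 119, 177 and 205 in Sox9-GOF tumours, against 652, 471 and 282 in controls. Itga7, a laminin-binding integrin, was the 1 called among 30 integrin, laminin and basement membrane genes, with 58.5, 158 and 67.2 in Sox9-GOF tumours, against 284, 427 and 278 in controls. Epithelial keratins, uroplakins and mesothelial genes (16), choroid plexus genes (10), muscle contractile genes (9), imprinted genes (20), erythroid genes (3) and ependymal and cilia genes (11) had 0 called by DESeq2, edgeR or limma, and 1, 0, 1, 4, 0 and 2 genes at an unadjusted limma p under 0.05. Among the 21 genes of p53 response and cell cycle inhibition, Cdkn2a was called higher and Zmat3, an RNA-binding p53 target, lower. Zmat3 had 220.2, 266 and 272 in Sox9-GOF tumours, against 362, 376 and 444 in controls. In the 6 fits that left out 1 library, Zmat3 was called in 0 and Cdkn2a in 2.

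Longer genes tended to be lower in Sox9-GOF tumours. Across 13885 fitted genes with a RefSeq span, Spearman's rho between log2 fold change and genomic span was -0.21, and across 14060 genes with a GENCODE transcript it was -0.19 for the length of the longest transcript and -0.01 for its GC content. The median span was 8.92 kb for genes called higher, 59.1 kb for genes called lower and 23.9 kb for all fitted genes. These are values across genes, which are not independent replicates.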

How the data were processed

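Poly(A) RNA of brain tumour tissue was sequenced, and the comparison used 3 EPN Sox9-GOF and 3 EPN control libraries, grouped by title. The signal values in the deposited table are read counts that the authors divided by a size factor per library. STAR 2.5.0a, DESeq2 1.30.1 and the mm10 build are named in the submitters' processing notes, while no source used here names the counting program, its strand setting or the annotation. Genes that overlap, lie antisense or have near copies are therefore uncertain.

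All values, divided by the step of each library, came out as whole reads within 0.001, and the reads recovered this way were used only for alternatives. Log2(normalized count + 1) was fitted with limma 3.58.1 (trend) in R 4.3.3 for genes averaging 10 or more over the 6 libraries. P-values were adjusted by Benjamini-Hochberg, and calls needed 0.05. A fold change on this scale is smaller than the true one for low genes. Alternatives were edgeR 4.0.16, DESeq2 1.42.0, other filters, pseudocounts, scaling, sample weights and leaving out libraries. The fits were tested on simulated data. Intervals on counts cover counting error only.

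Named genes were the 12 with the smallest limma p in each direction whose groups did not overlap, with an absolute log2 fold change of at least 1 and a mean of at least 50 in the higher group (predicted, clone, small RNA and Y-linked genes left out), plus members of each list picked by smallest p. Other genes named are well-known members of the lists, picked after their values were seen. Genes and lists were chosen with earlier results of these data known, and Cdhr5, its neighbours and the antibody genes after their values were seen.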

Additional observations from a re-analysis of the deposited data

How the results depend on the processing

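Limma called 0 genes with TMM scaling, a pseudocount of 8, no filter, a minimum mean of 50, sample weights and the replicate block, and edgeR also called 0. DESeq2 called 842 genes, and a limma fit over all 15 libraries of the series called 130, of which 118 were among those of DESeq2. Leaving out 1 library gave 0 to 5 limma calls, the 5 being Y-linked genes and Xist without control 1, and 723, 1226, 618, 451, 384 and 209 DESeq2 calls without Sox9-GOF 1 to 3 and control 1 to 3 in that order. The log2 fold change of Sox9 was 1.04 by DESeq2 and, without the same libraries in turn, 1.08, 1.15, 0.88, 1.00, 1.00 and 1.106, past the threshold each time, while by limma without 1 library it was 0.88 to 1.16 and its adjusted p never reached the threshold. Deviations of genes from their group mean correlated at -0.0996, 0.0199 and 0.297 between same-numbered libraries. Between differently numbered libraries they correlated at -0.29 to 0.31. With 3 libraries a group, these values cannot settle whether the numbers pair the samples. With the replicate block limma called 0 genes and the limma adjusted p of Sox9 was 0.247. For the 23 leading genes besides Sox9, 347 of 506 gene and setting pairs kept their side of the threshold and 159 passed it, 153 of these by DESeq2, and since these genes were chosen for groups that do not overlap, their kept direction is no sign of stability. Of 56 gene lists, 19 turned the direction of their median when 1 library was left out. With 3 libraries a group and the smallest library at 6266613 reads, small differences of low genes were not detectable. The DESeq2 fits without 1 library, and a limma fit of the 4 libraries with Y-linked reads (the 3 Sox9-GOF tumours and control 1 alone), were chosen after seeing the data. That limma fit gave a Sox9 log2 fold change of 1.10. Its control arm is 1 library, the one with low chromosome 7, whose spread is assumed to be that of the Sox9-GOF tumours. The cause of the gap between tools was not tested.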
